A study of Mus musculus with 6 samples.

Results

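Toll-like receptors (TLRs) are the proteins by which macrophages sense microbial products, and 10 of their genes, Tlr1, Tlr2, Tlr3, Tlr4, Tlr5, Tlr6, Tlr7, Tlr8, Tlr9 and Tlr13, were described here in macrophages of wildtype (WT) and FOXO3 knockout (FOXO3 KO) mice. They were matched by symbol, and all 10 were found among the 54648 gene symbols of the deposited table. RNA-seq had been carried out on 3 WT and 3 FOXO3 KO samples of peritoneal cells, and the comparison asks which transcripts change in macrophages when FOXO3, a transcription factor, is lost. All mice were C57BL/6, were 6 to 8 weeks old, ate standard chow and had received 3% thioglycollate into the peritoneum 4 days before the cells were harvested. Thioglycollate is an irritant that recruits monocytes, which mature into macrophages in the cavity. The methods name male and female mice and homozygous genotypes, and the labels give no sex for a library. No purification of macrophages and no promoter or cell type that would limit the knockout are described in the sources used here.

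As background, each receptor carries leucine-rich repeats that bind a ligand and a TIR domain in the cytoplasm that recruits adaptors. The surface receptors read mostly lipids and proteins of bacterial walls, while the endosomal receptors read nucleic acids taken up with particles. MYD88 serves all of them except TLR3, which signals through TICAM1 (TRIF), and both routes end at NF-kB and interferon regulatory factors that induce cytokines. In macrophages the receptors are known for starting the inflammatory response to microbes and to damaged cells.

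Levels are in CPM, that is, counts after scaling of all libraries to the same size with edgeR's TMM factors, which lay between 0.936 and 1.10. Library totals ranged from 28083393 to 36424117 counts. The 12 macrophage markers were above 0 in every library and summed to between 15428 and 19988 CPM. Foxo3 (chromosome 10, 42181841 to 42276755) was at 117, 107 and 72.9 CPM in WT 1, 2 and 3, and at 4.71, 104 and 4.28 CPM in FOXO3 KO 1, 2 and 3. The library labelled FOXO3 KO 2 therefore held Foxo3 at the WT level, and results are given with and without it. WT 3 also stood apart. Of 6 markers of resident peritoneal macrophages, Timd4, Gata6, Selp and Icam2 were highest there, Timd4 at 317 CPM against at most 51.1 CPM in the other libraries, whereas Cd93 was lowest there (301 CPM, against at least 609 CPM) and Rarb was highest in FOXO3 KO 2. B cell markers summed to 3670 CPM in WT 3 and to between 202 and 835 CPM in the others. The lowest sum of macrophage markers was also that of WT 3. Cd68 was at 523 CPM there and at no less than 988 CPM elsewhere. Csf1r, Lyz2, C1qb, Mertk, Cd14 and Fcgr1 were lowest there too, whereas Adgre1, C1qa, C1qc and Itgam were highest there. Results are given without WT 3 as well.

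Tlr1 (chromosome 5, 64924679 to 64933563) and Tlr6 (chromosome 5, 64952031 to 64960097), both on the minus strand of GRCm38, are neighbours whose coding sequences share an identical run of 229 bases, from coding base 1468 to 1696 of Tlr1 and from 1507 to 1735 of Tlr6. Of the windows of 76 bases, the length of a read, in their transcripts, 336 occurred in both, which is 9.14% of the windows of Tlr6. Of those of Tlr1, 10.5% occurred in Tlr6 or another gene. These windows take no account of the read from the other end of the same fragment, which can lie outside the run. The first 120 bases of the run, shown because a read inside it cannot be given to one gene by its own letters, are printed in lower case with no part marked.
Tlr1 and Tlr6: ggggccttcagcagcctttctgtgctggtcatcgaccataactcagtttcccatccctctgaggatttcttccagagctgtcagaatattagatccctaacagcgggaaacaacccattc
The deposited counts of these 2 genes were not whole, lying up to 0.471 and 0.372 from a whole number, but those of Tlr4, which shares no window, also lay up to 0.207 from one, so the fractions do not follow shared windows alone. The other members lay within 0.0248 of a whole number, Tlr3 among them. Tlr3 shared 236 windows, 4.24% of its own, with the GENCODE transcript Gm45542, to which 0 to 2 counts were assigned in a library. Tlr2, Tlr4, Tlr5, Tlr7, Tlr8, Tlr9 and Tlr13 shared no window with another gene.

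The 250 bases before each start were taken from RefSeq's promoters on GRCm38.p6, which held 10 starts of 8 members; Tlr4 and Tlr7 had none. Those of Tlr2, Tlr5 and Tlr9 are shown, 5′ to 3′ on the strand of the gene. They were chosen because Tlr2 and Tlr5 did not overlap between the groups and Tlr9 had the largest decrease with all libraries. That decrease was a log2 fold change of -0.83, but of -0.13 without WT 3, where Tlr8 was at -0.16. For Tlr2 the 91 bases upstream of its first GENCODE exon are shown, at chr3:83841768-83841858 (minus strand). For Tlr5 it is the whole window at chr1:182954538-182954787 (plus strand) and for Tlr9 that at chr9:106222348-106222597 (plus strand). Capitals mark the letters GAGGAAG, a core of the PU.1 motif, PU.1 being a lineage factor of macrophages and B cells. The window of Tlr3 is not shown, since 178 of its bases lie on exons of Tlr3.
Tlr2: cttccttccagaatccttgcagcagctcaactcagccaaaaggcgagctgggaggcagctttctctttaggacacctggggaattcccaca
Tlr5: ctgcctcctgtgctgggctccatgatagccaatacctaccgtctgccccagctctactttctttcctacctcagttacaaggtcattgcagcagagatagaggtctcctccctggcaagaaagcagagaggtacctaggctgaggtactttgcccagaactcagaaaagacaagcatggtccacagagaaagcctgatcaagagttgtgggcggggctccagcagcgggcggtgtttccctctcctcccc
Tlr9: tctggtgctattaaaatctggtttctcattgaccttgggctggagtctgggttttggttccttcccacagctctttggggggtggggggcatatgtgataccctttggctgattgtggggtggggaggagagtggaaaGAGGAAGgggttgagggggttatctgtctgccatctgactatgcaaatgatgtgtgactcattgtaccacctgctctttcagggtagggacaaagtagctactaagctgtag
The FOXO core GTAAACA was found on neither strand of any of the 10 windows, and it was present in 3.17% of 32851 such windows of all genes. Several windows lie partly on exons of their own gene, among them 211 bases of 1 Tlr1 window, 178 of Tlr3, 159 of Tlr2 and 71 of Tlr13. For Tlr3, no sequence upstream of its first GENCODE exon was searched. GAGGAAG was present upstream of Tlr1, Tlr9 and Tlr13, and in 10.6% of all windows. A narrow form of the NF-kB motif, of 10 bases and present in 1.41% of all windows, matched once. The match was at bases -211 to -202 before the start of Tlr3, which lie on a Tlr3 exon of the GENCODE models. Other forms of the NF-kB motif were not searched. A window without a match, that of Tlr2 among them, can therefore still hold an NF-kB site. An interferon response motif of the same length, present in 2.98% of all windows, matched at a pair of overlapping places in 1 of the Tlr6 windows, and both strands were searched for every motif. These letter matches describe the sequence only.

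Across libraries, the most abundant members were Tlr13, Tlr8, Tlr7 and Tlr4, the LPS receptor. Tlr3 was second to last and Tlr5, the flagellin receptor, was the least abundant. Levels between genes were compared as CPM per kb of exon, averaged over the 6 libraries of both groups. Tlr13, which reads bacterial ribosomal RNA, led with 94.3 ± 24.6 CPM per kb (SD, n = 6), above 96.8% of the genes tested. Tlr8 and then Tlr7, which reads single-stranded RNA, followed at 55.4 ± 14.1 and 38.2 ± 3.54 CPM per kb. Tlr4, which reads lipopolysaccharide (LPS) with its partner LY96, was at 31.8 ± 7.15 CPM per kb. Tlr1 and Tlr2, which pair to read triacylated lipopeptides, were at 26.3 ± 2.38 and 22.2 ± 4.30 CPM per kb, and Tlr6, which pairs with TLR2 to read diacylated ones, was at 11.9 ± 1.88 CPM per kb. Tlr9, which reads CpG DNA, was at 6.86 ± 4.40 CPM per kb and Tlr3, which reads double-stranded RNA, at 4.37 ± 1.04 CPM per kb. Tlr5, the flagellin receptor, was last at 0.494 ± 0.251 CPM per kb, above 17.8% of genes. Of the 9 pairs of neighbours in this order, the ranges over the 6 libraries were apart for Tlr2 over Tlr6 and for Tlr3 over Tlr5, and the others overlapped. Compared within each library, these pairs, Tlr13 over Tlr8 and Tlr7 over Tlr4 kept the order in all 6 libraries. Each remaining pair kept it in 5. With the length of the longest transcript in place of the exons, Tlr4 and Tlr7 changed places. The 5 endosomal receptors together made up between 62.8% (WT 3) and 70.5% (WT 2) of the family's CPM per kb, and the FOXO3 KO libraries lay inside that range, at 69.2%, 70.3% and 64.7%.

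**Figure D1:**
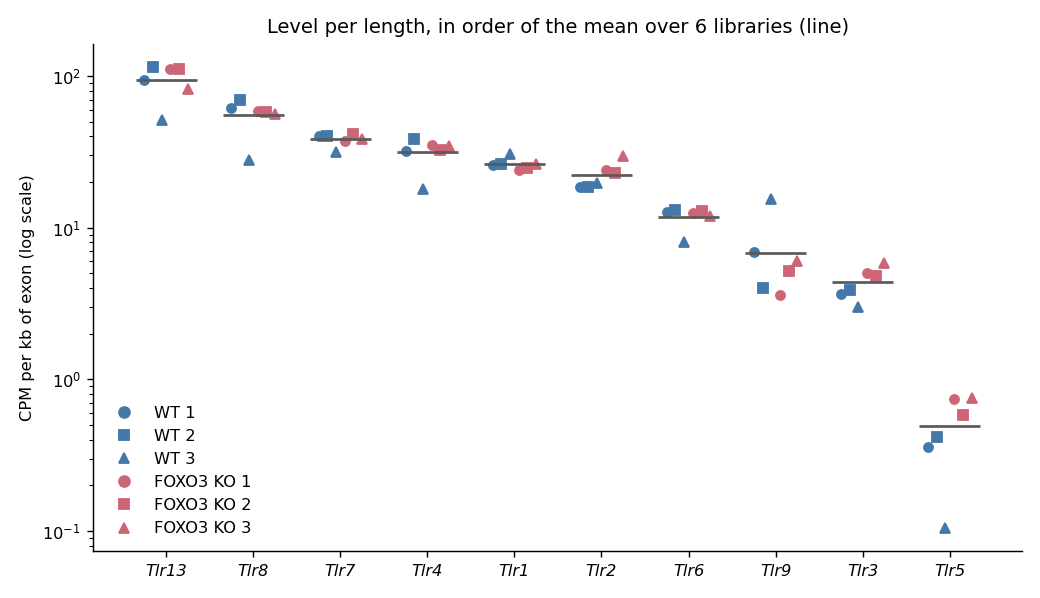
CPM per kb of exon (log scale) of the 10 receptor genes in each library, coloured by group, with a line at the mean over 6 libraries. Tlr13 is at the left with a mean of 94.3 and Tlr5 at the right with a mean of 0.494, and the 3 WT 3 values of Tlr13, Tlr8 and Tlr4 lie below the rest of their columns.

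Between the groups, Tlr2, Tlr3 and Tlr5 were higher in every FOXO3 KO library than in any WT library, but no member passed the test over all genes. In edgeR's quasi-likelihood fit of all 6 libraries, 0 of 10 members were called (false discovery rate, FDR, under 0.05 and a fold change over 1.5), as were 0 of all 15608 genes tested (0%), and the members' FDRs ran from 0.714 to 0.935. The smallest FDR of any gene in that fit was also 0.714. Without FOXO3 KO 2, 0 of 10 members and 0% of 16217 genes were called. Foxo3 itself was not called there, with a log2 fold change of -4.46 and FDR = 0.105 in edgeR. The lack of a call by edgeR therefore does not show that a gene is unchanged. DESeq2 called 0 members as well, where it called 0.794% of genes with all libraries and 0.666% without FOXO3 KO 2, and the smallest FDR a member reached in any fit was 0.0739, for Tlr3 in DESeq2 over all libraries. At an unadjusted p under 0.05 in edgeR's fit, 3 members were higher, where 4.04% of genes were, and 0 were lower, where 1.65% of genes were. Without FOXO3 KO 2, 2 members, Tlr2 and Tlr3, were higher at that p, where 3.05% of genes were, and without WT 3 the same 3 were, where 6.15% of genes were. The 3 members above all WT libraries compare with 7% of genes that did so, and 0 members were below all WT libraries, where 5.37% of genes were. With FOXO3 KO 1 and 3 alone against the 3 WT libraries, 3 members were above, where 11% of genes were, and 0 below, where 9.26% were. In these bulk samples fewer cells of a type and less RNA per cell cannot be told apart.

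**Figure D2:**
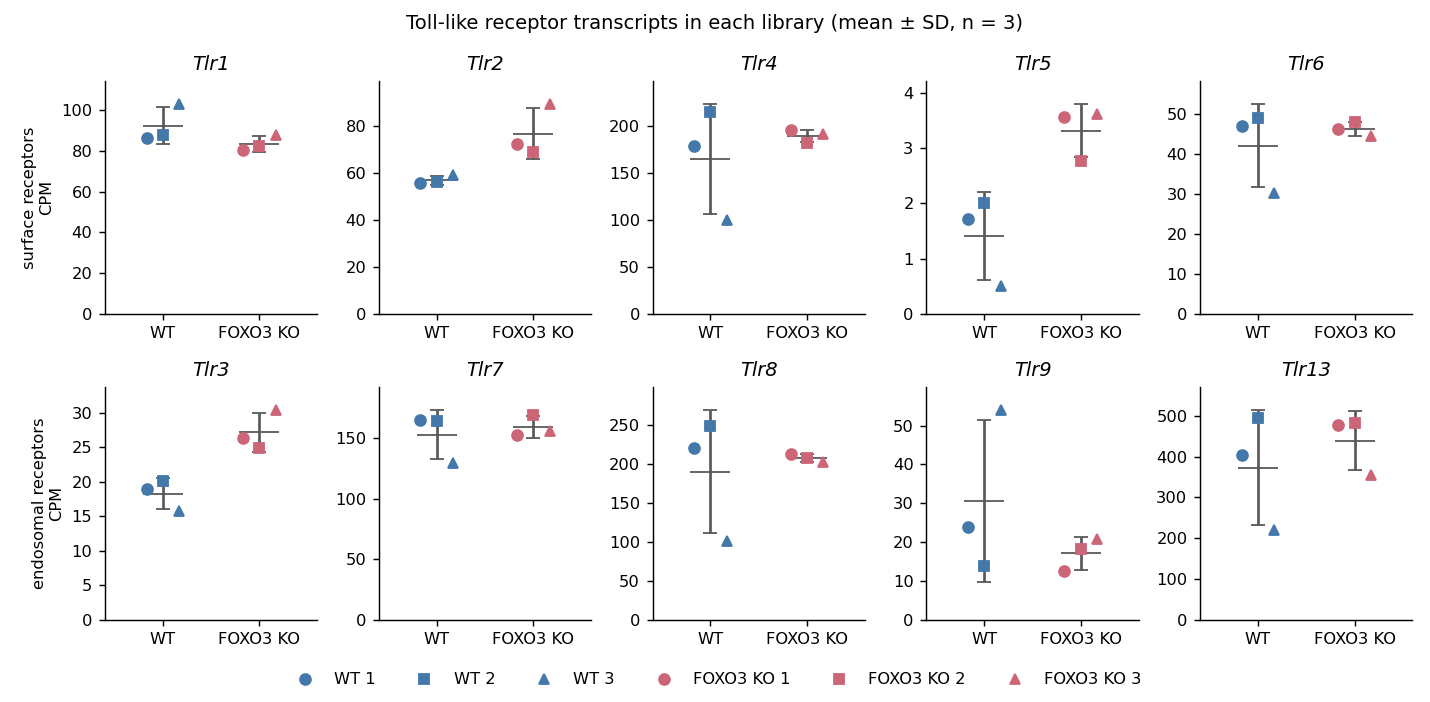
CPM of each member in the 3 WT (blue) and 3 FOXO3 KO (red) libraries, surface receptors in the upper row and endosomal ones in the lower, with the mean and SD of each group (n = 3) in grey; each panel has its own axis from 0. The red points of Tlr2, Tlr5 and Tlr3 lie above all blue points, and WT 3 (blue triangle) is the lowest library for 7 members.

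Among the surface receptors, Tlr2 (chromosome 3, 83836272 to 83841767) was at 55.8, 56.1 and 59.3 CPM in WT 1, 2 and 3, and at 72.4, 69.1 and 89.4 CPM in FOXO3 KO 1, 2 and 3. The WT libraries lay close together, the groups did not overlap, and FOXO3 KO 2 was the lowest of its group. The log2 fold change was 0.43 ± 0.12 (SE; fold 1.35), with FDR = 0.714 in edgeR's quasi-likelihood test, and it was 0.50 without FOXO3 KO 2 and 0.47 without WT 3. TLR2 is the shared partner of TLR1 and TLR6. Tlr1 was at 86.4, 88.1 and 103 CPM in WT, and at 80.4, 82.5 and 88.0 CPM in FOXO3 KO. The groups overlapped, with FOXO3 KO 3 between WT 1 and WT 2, and WT 3 was the highest library. The log2 fold change of Tlr1 was -0.15 ± 0.11 (FDR = 0.852 in edgeR), and -0.05 without WT 3. Tlr6 was at 47.1, 49.1 and 30.2 CPM in WT and at 46.3, 48.0 and 44.4 CPM in FOXO3 KO, so that all libraries but WT 3 lay within 1.10-fold of each other. Its log2 fold change of 0.13 ± 0.19 (FDR = 0.896 in edgeR) turned to -0.05 without WT 3.

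Tlr4 (chromosome 4, 66827584 to 66930284, plus strand) was at 179, 214 and 99.8 CPM in WT 1, 2 and 3, and at 195, 182 and 191 CPM in FOXO3 KO 1, 2 and 3. The FOXO3 KO libraries lay between WT 1 and WT 2, and WT 3 was lower than every other library, at 0.508 times the mean of WT 1 and 2. Its log2 fold change was 0.21 ± 0.27 (FDR = 0.891 in edgeR) with all libraries and -0.04 ± 0.10 without WT 3. Tlr5 (chromosome 1, 182954788 to 182976044, plus strand) rested on few reads, with 62, 57 and 18 counts in WT and 101, 76 and 121 counts in FOXO3 KO. These were 1.72, 2.01 and 0.502 CPM in WT and 3.58, 2.77 and 3.62 CPM in FOXO3 KO. The groups did not overlap, and WT 3 was again the lowest library. The log2 fold change was 1.24 ± 0.51 (fold 2.36), with FDR = 0.839 in edgeR's quasi-likelihood test. It was 1.35 without FOXO3 KO 2 and 0.85 without WT 3.

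Among the endosomal receptors, Tlr3 (chromosome 8, 45395665 to 45411080) was at 19.0, 20.1 and 15.7 CPM in WT 1, 2 and 3, and at 26.3, 24.9 and 30.3 CPM in FOXO3 KO 1, 2 and 3. The groups did not overlap, and as for Tlr2 the lowest FOXO3 KO library was FOXO3 KO 2 and the highest FOXO3 KO 3. The log2 fold change was 0.57 ± 0.14 (fold 1.49), with FDR = 0.714 in edgeR's quasi-likelihood test. It was 0.63 without FOXO3 KO 2 and 0.49 without WT 3. TLR3 is the one member that does not use MYD88, and its adaptor gene Ticam1 had a log2 fold change of -0.09 ± 0.16 (FDR = 0.912 in edgeR). On log2(CPM + 0.5), FOXO3 KO 2 lay 55.6%, 71.6% and 73.1% of the way from the WT mean to the mean of FOXO3 KO 1 and 3 for Tlr2, Tlr3 and Tlr5. Its Foxo3 lay -2.29% of that way, at the WT level. These 3 are the members for which every FOXO3 KO library was above WT, which fixes the side on which FOXO3 KO 2 lies, and for 5 of the 10 members FOXO3 KO 2 lay inside the WT range.

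The 3 members on chromosome X, Tlr7 (167304929 to 167330558), Tlr8 (167242696 to 167264329) and Tlr13 (106143204 to 106160493), were lowest in WT 3. Tlr7 was at 165, 164 and 129 CPM in WT 1, 2 and 3, and at 153, 169 and 156 CPM in FOXO3 KO 1, 2 and 3. Tlr8, its neighbour, was at 220, 249 and 101 CPM in WT and at 212, 207 and 203 CPM in FOXO3 KO. Tlr13 was at 405, 494 and 220 CPM in WT and at 477, 483 and 355 CPM in FOXO3 KO. In each, the FOXO3 KO libraries overlapped the range of the WT libraries. The log2 fold changes were 0.06 ± 0.13 for Tlr7, 0.13 ± 0.32 for Tlr8 and 0.23 ± 0.31 for Tlr13 (FDR = 0.922, 0.935 and 0.892 in edgeR), and all 3 turned negative without WT 3, to -0.03, -0.16 and -0.02.

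Since these genes are on chromosome X, the sex-linked transcripts are given beside them. Xist, the RNA of the inactive X chromosome, was at 869 CPM in WT 3 and 1127 CPM in FOXO3 KO 3, and at no more than 0.177 CPM in the other libraries. Ddx3y, on chromosome Y, was at 114, 98.6 and 23.6 CPM in WT 1, 2 and 3, and at 117, 123 and 2.36 CPM in FOXO3 KO 1, 2 and 3. Both libraries that held Xist thus also held Ddx3y below the level of the other libraries, with 848 counts in WT 3 and 79 in FOXO3 KO 3. Tlr8 and Tlr13 were lowest in their group in both libraries that held Xist, as was Tlr6 on chromosome 5, whereas Tlr7 was not. With a term for the split of libraries by Xist in edgeR's fit, the log2 fold changes were 0.07 for Tlr7, 0.23 for Tlr8 and 0.29 for Tlr13, and those of Tlr2, Tlr3 and Tlr5 were 0.42, 0.58 and 1.40 (FDR = 0.380, 0.385 and 0.452).

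Tlr9 (chromosome 9, 106222598 to 106226883, plus strand) ran the other way, with its highest level in WT 3. It was at 23.9, 13.9 and 53.9 CPM in WT 1, 2 and 3, and at 12.5, 18.2 and 20.8 CPM in FOXO3 KO 1, 2 and 3. The other WT libraries overlapped the FOXO3 KO libraries, and WT 3 was at 2.85 times the mean of WT 1 and 2. The log2 fold change was -0.83 ± 0.50 (fold 0.561; FDR = 0.843 in edgeR), and -0.13 ± 0.29 without WT 3. TLR9 is also a receptor of B cells and plasmacytoid dendritic cells, and markers of both are given beside it. The 8 B cell markers, each above 0 in every library, summed to 835, 449 and 3670 CPM in WT 1, 2 and 3, and to 202, 395 and 778 CPM in FOXO3 KO 1, 2 and 3. The highest library and the lowest, WT 3 and FOXO3 KO 1, were the same for Tlr9 and for this sum. They were also the same for the sums of plasmacytoid and of T cell markers, so this match is not particular to B cells. The 6 plasmacytoid markers summed to 418 CPM in WT 3 and to between 160 and 206 CPM in the others, but Siglech, the most specific of them, was lowest in WT 3, at 0.864 CPM. The part of these cells in the Tlr9 values was not tested.

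**Figure D3:**
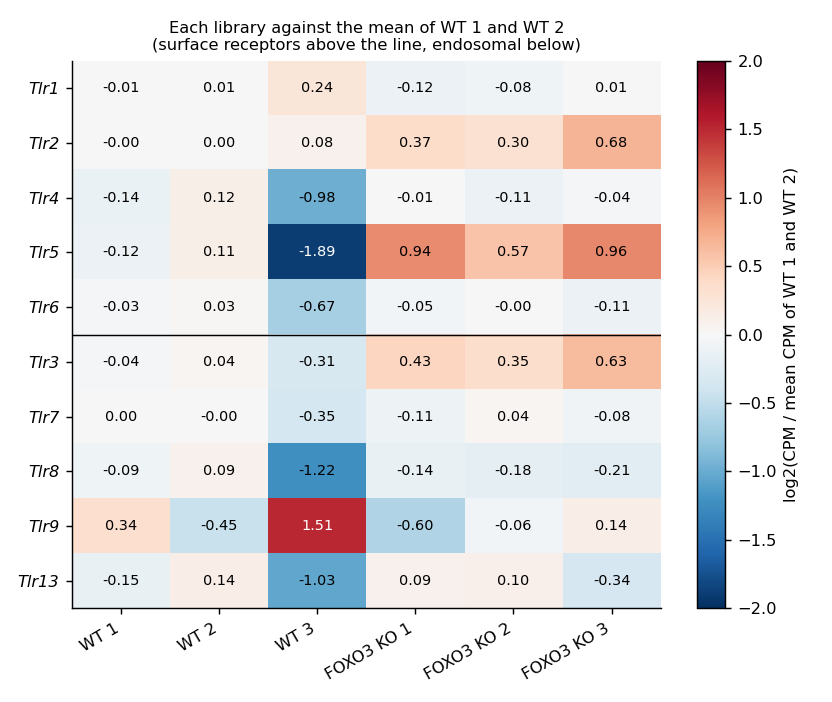
The log2 ratio of each member's CPM in each library to the mean CPM of WT 1 and WT 2, with surface receptors above the line and endosomal ones below; red is higher and blue lower. The WT 3 column holds the strongest colours, from -1.89 for Tlr5 to 1.51 for Tlr9, and the rows of Tlr2, Tlr3 and Tlr5 are red in all 3 FOXO3 KO columns.

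The direction of 5 members turned without WT 3. This library was the lowest library for 7 members and the highest for 2, Tlr1 and Tlr9. The log2 fold change was positive for 8 of 10 members with all libraries and for 8 without FOXO3 KO 2, but for 3 (Tlr2, Tlr3 and Tlr5) without WT 3, while 48.8%, 47.6% and 50.7% of all genes were positive in these fits. The median over the members was 0.17, 0.14 and -0.04, beside -0.01, -0.02 and 0.00 over all genes. Other cell markers also moved with WT 3, among them those of mast cells, which summed to 778 CPM there and to between 99.8 and 292 CPM elsewhere, and those of T cells, at 128 CPM there and between 18.9 and 49.4 CPM elsewhere. Their part in the low values of Tlr4, Tlr6, Tlr8 and Tlr13 was not tested.

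**Figure D4:**
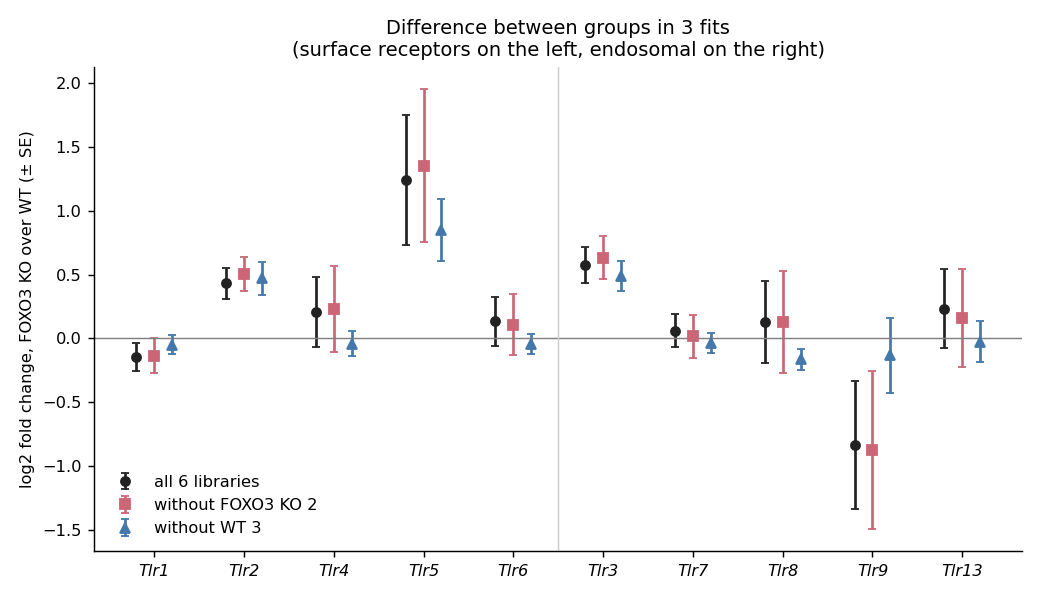
Log2 fold change of FOXO3 KO over WT (± SE) for each member from edgeR's fit of all 6 libraries (black), without FOXO3 KO 2 (red) and without WT 3 (blue). Tlr2, Tlr5 and Tlr3 stay above 0 in all 3 fits, and the blue points of the remaining members lie between -0.16 and -0.02.

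Markers of other cells also moved with the group in which Tlr2, Tlr3 and Tlr5 were higher. The 12 neutrophil markers summed to 217, 225 and 137 CPM in WT 1, 2 and 3, and to 514, 231 and 431 CPM in FOXO3 KO 1, 2 and 3, with 8 of the 12 above 0 in every library. Most of the difference came from S100a9, at 0.470, 5.61 and 0.251 CPM in WT and 164, 6.93 and 116 CPM in FOXO3 KO, and from S100a8, at 7.89, 11.3 and 2.40 CPM in WT and 83.1, 12.9 and 59.7 CPM in FOXO3 KO. Cxcr2, at 0.885, 0.881 and 0.585 CPM in WT and 18.7, 2.22 and 14.4 CPM in FOXO3 KO, did not overlap between the groups either. Nor did Stfa2l1 (at most 0.0353 CPM in WT, at least 0.182 CPM in FOXO3 KO) and, narrowly, Csf3r (at most 138.7 and at least 139.2 CPM). Retnlg, Mmp8, Mmp9, Camp, Ngp and Ltf overlapped. Ly6g, which defines neutrophils, was near 0 throughout, at no more than 0.0277 CPM in WT (0 in WT 2 and WT 3) and between 0.0354 and 0.120 CPM in FOXO3 KO. Mesothelial markers, 5 of 6 of them above 0 in every library, summed to between 4.41 and 5.04 CPM in WT. In FOXO3 KO 1, 2 and 3 they summed to 9.98, 38.1 and 15.8 CPM. FOXO3 KO 2, the highest for this sum, was the lowest of its group for Tlr2, Tlr3 and Tlr5. Neither the neutrophil nor the mesothelial sum overlapped between the groups. The part of these cells in the differences of the 3 receptors was not tested.

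Mice have a further pair of receptors, Tlr11 and Tlr12, which read profilin of parasites and were at low levels. Tlr11 was at between 2.62 and 5.90 CPM, and Tlr12 at between 0.354 CPM (FOXO3 KO 1) and 2.37 CPM (WT 3). Their log2 fold changes were 0.28 ± 0.36 and -0.69 ± 0.72 (FDR = 0.891 and 0.872 in edgeR), and that of Tlr12 turned to 0.40 without WT 3.

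Genes whose pattern over the 6 libraries was most like that of each member were sought among 9281 genes with a mean of at least 10 CPM (9282 for Tlr5), by the root-mean-square difference of centred log2(CPM + 0.5) profiles. Within the family, Tlr4 and Tlr8 were the most alike pair at 0.0924, and Tlr2 was nearest to Tlr3 at 0.152. The nearest genes to Tlr2 were Trps1 (0.0693) and I830077J02Rik (0.0736), where the profile of Tlr2 itself had a root mean square of 0.240. Those to Tlr3 were Rasal2 (0.0710) and Aph1b (0.0711), beside 0.312 for its own profile. Those to Tlr5 were Cx3cr1 (0.101), the fractalkine receptor of monocytes and macrophages, and Nek6 (0.127), beside 0.698. The nearest genes to these 3 members were less near than those to Tlr1, Tlr4, Tlr6, Tlr7, Tlr8 and Tlr13. The own profiles of those 6 had root mean squares of 0.114, 0.360, 0.238, 0.128, 0.424 and 0.409. The differences were not scaled to the size of a profile, so they do not rank how typical a pattern is. Tlr9 was nearest to Rasgrp2 (0.0725) and Pml (0.0901), beside 0.675. Tlr4 was nearest to Fut4 (0.0364) and Trip10 (0.0467), Tlr8 to Cln3 (0.0502) and Ssh3 (0.0522), and Tlr13 to Gyg (0.0388) and Gm10705 (0.0433). For Tlr1 they were Cyb561d1 (0.0172) and Polrmt (0.0185), for Tlr6 Apaf1 (0.0216) and Bcl2l2 (0.0254), and for Tlr7 Mindy2 (0.0257) and Gapvd1 (0.0322).

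Genes whose proteins serve the receptors, and genes that the receptors induce, were compared by lists of 73 genes. Of these, 69 passed the filter on low counts. In edgeR's fits with all libraries, without FOXO3 KO 2 or without WT 3, 0 of them were called. Of the 69, 10 were above all WT libraries in every FOXO3 KO library, where 7% of all genes were, and 2 were below, where 5.37% were. At an unadjusted p under 0.05 in edgeR's fit, 7 were higher, where 4.04% of all genes were, and 0 were lower, where 1.65% were. The 14 tested induced genes, described last, made up 5 of the 10 above all WT libraries and 6 of the 7 at that p. These counts over the 69 therefore do not describe the genes that serve the receptors. Of the 6 co-receptor genes, Ly96, the LPS-binding partner of TLR4, was at 17.0, 15.6 and 16.0 CPM in WT and at 22.7, 18.0 and 19.1 CPM in FOXO3 KO. Its groups did not overlap, with a log2 fold change of 0.30 ± 0.13 (FDR = 0.839 in edgeR). Cd14, which hands LPS to TLR4, had a log2 fold change of 0.27 ± 0.16, Cd36 one of 0.29 ± 0.36, and Cd180 and Ly86, a pair that tunes TLR4, had 0.06 ± 0.15 and -0.01 ± 0.16. Lbp was at 8.05, 6.95 and 58.6 CPM in WT and at 13.2, 17.5 and 16.3 CPM in FOXO3 KO. Its log2 fold change was -0.65 ± 0.83, and 1.07 without WT 3. The median of the list was 0.16, both with all libraries and without WT 3.

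Of 13 tested genes of trafficking and processing, 0 had an unadjusted p under 0.05 in edgeR's fit of all libraries. Their median log2 fold change was 0.06, with 9 positive. Without WT 3 the median was -0.17, with 3 positive. In that fit 2 of them had an unadjusted p under 0.05 in either direction, where 6.15% of all genes were higher at that p. Unc93b1, the chaperone that takes the endosomal receptors out of the endoplasmic reticulum, was at 794, 719 and 534 CPM in WT and at 613, 698 and 679 CPM in FOXO3 KO, with a log2 fold change of -0.04 ± 0.19. It was lowest in WT 3, as were the endosomal receptors other than Tlr9. Pld4, an exonuclease that removes ligands of TLR9, was at 291, 293 and 303 CPM in WT and at 336, 330 and 391 CPM in FOXO3 KO, with no overlap and a log2 fold change of 0.25 ± 0.12 (FDR = 0.839 in edgeR). Hsp90b1, a chaperone of most receptors, and Slc15a4, a transporter of the endosome, had log2 fold changes of 0.06 ± 0.14 and -0.06 ± 0.12.

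Of 22 tested adaptors, kinases and transcription factors, 1 had an unadjusted p under 0.05, where 4.04% of all genes were higher at that p and 1.65% lower. It was Irf7, which drives interferon genes below TLR7 and TLR9, at 53.3, 60.9 and 55.8 CPM in WT and 61.4, 71.5 and 84.7 CPM in FOXO3 KO. Its log2 fold change was 0.36 ± 0.14 (FDR = 0.839 in edgeR). Irak4, the first kinase after MYD88, was also higher in each FOXO3 KO library, with a log2 fold change of 0.26 ± 0.11, whereas Irak1 and Ikbkg were lower in each. Ikbkg, the scaffold of the kinase complex that frees NF-kB, had one of -0.15 ± 0.09. Myd88 was at 80.6, 89.6 and 70.6 CPM in WT and at 98.1, 81.2 and 106 CPM in FOXO3 KO, so that the groups overlapped (0.25 ± 0.14). The list's median was -0.02. The 14 negative regulators had a median of 0.04 and 0 with an unadjusted p under 0.05 in edgeR's fit of all libraries. Without WT 3 their median was 0.07. In that fit 2 had an unadjusted p under 0.05 in either direction, where 6.15% of all genes were higher at that p. Sigirr, a decoy member of the same receptor superfamily, was at 7.53, 4.55 and 21.4 CPM in WT and at 4.53, 6.16 and 7.57 CPM in FOXO3 KO, highest in WT 3 as Tlr9 was. Its log2 fold change was -0.88 ± 0.58, and 0.02 without WT 3. Zc3h12a, which degrades cytokine mRNA, and Rnf216, a ubiquitin ligase for TLR4 and TLR9, had log2 fold changes of 0.14 ± 0.10 and -0.13 ± 0.10.

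**Figure D5:**
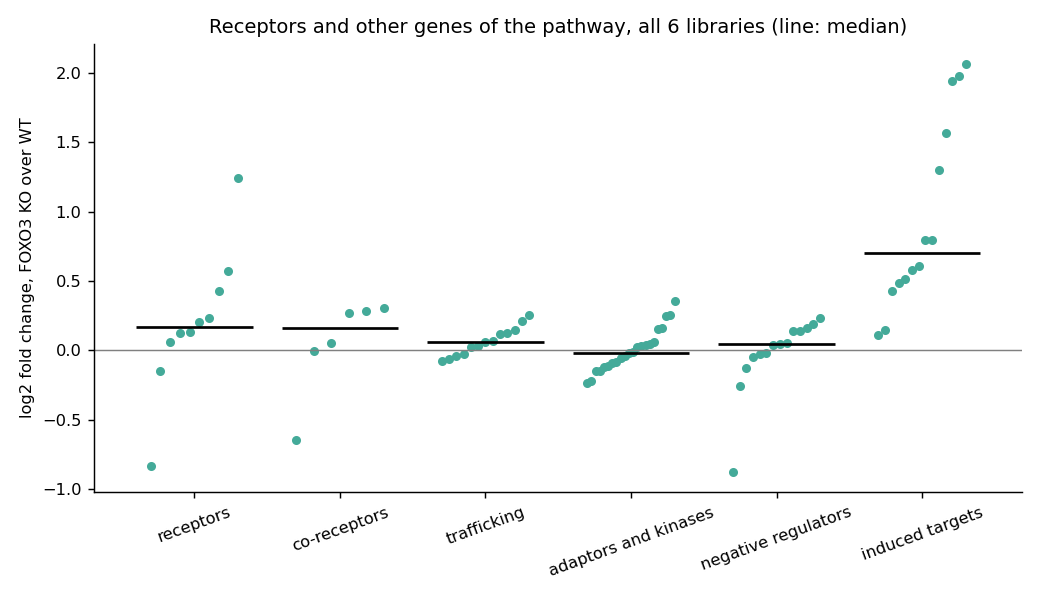
Log2 fold change of FOXO3 KO over WT from edgeR's fit of all 6 libraries for the 10 receptors and the tested genes of 5 lists of the pathway, each point a gene, with a line at the list's median. The induced targets have a median of 0.70 and lie above 0, and the medians of the other lists are between -0.02 and 0.17.

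The list that stood highest was that of genes the receptors induce, which was fixed with earlier results of these data known. All 14 tested had a positive log2 fold change, also without WT 3, where 48.8% of all genes had one with all libraries and 50.7% without WT 3, with a median of 0.70 (0.71 without FOXO3 KO 2, where Cxcl1 was at -0.14, and 0.81 without WT 3). Of the 14, 0 were called by edgeR and 6 had an unadjusted p under 0.05 (Tnf, Il1b, Cxcl10, Ccl2, Ptgs2 and Nos2), and DESeq2 called Il1b and Ccl2. Over all genes, 4.04% were higher at that p and DESeq2 called 0.794%. The study's signature from these samples also holds Il1b and Ccl2. Cxcl10 and Nos2 were low, at no more than 3.03 and 1.82 CPM, and both were highest in FOXO3 KO 2, where Foxo3 was at the WT level. Without FOXO3 KO 2 their log2 fold changes fell from 1.94 to 1.25 and from 1.98 to 1.03. Il6 and Il10 were at no more than 0.725 and 0.566 CPM in any library. Ccl2, a chemokine for monocytes, was at 6.09, 9.48 and 4.74 CPM in WT and at 25.8, 15.0 and 19.2 CPM in FOXO3 KO. Its log2 fold change was 1.57 ± 0.32 (fold 2.96; FDR = 0.714 in edgeR, 0.00422 in DESeq2). Il1b, the cytokine interleukin-1 beta, was at 4.54, 7.33 and 3.57 CPM in WT and at 29.1, 8.75 and 26.6 CPM in FOXO3 KO, with FOXO3 KO 2 close to WT 2. Its log2 fold change was 2.06 ± 0.51 (fold 4.18; FDR = 0.714 in edgeR, 0.0162 in DESeq2), and the 2 high libraries were those with the highest neutrophil markers and also those in which Foxo3 was low. The part of either was not tested. Tnf, the cytokine tumour necrosis factor, was at 5.01, 4.58 and 3.40 CPM in WT and at 7.51, 8.35 and 6.70 CPM in FOXO3 KO, with a log2 fold change of 0.79 ± 0.22 (FDR = 0.714 in edgeR). Of the 14 tested, 5 (Tnf, Il1b, Ccl2, Ptgs2 and Nos2) were above all WT libraries in every FOXO3 KO library, where 7% of all genes were. Tlr2, Tlr3 and Tlr5 were too. Other stimuli induce the genes of this list as well.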

How the data were processed

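The authors deposited estimated counts for 54648 gene symbols in 6 libraries of total RNA, read from both ends in reads of 76 bases. The submitters' processing notes name STAR 2.6.1d, kallisto 0.46.0, DESeq2 and the build mm10, with no role stated for any of them. The deposited counts were rounded first (81.4% differed from an integer by at most 0.01, and 59.4% of those above 0). The files pair no coordinates with symbols, so coordinates and lengths were taken from GENCODE M21 on GRCm38 (mm10), which held 99.0% of the symbols, and promoters from RefSeq.

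The groups were taken from the labels and compared by the quasi-likelihood test of edgeR 4.0.16 (R 4.3.3) after filterByExpr and TMM scaling, with Benjamini-Hochberg adjusted p-values over the whole set of tested genes. The study's thresholds were used for calls, an FDR under 0.05 and a fold change over 1.5. At them the study reported more genes in each direction than edgeR or DESeq2 called here. The reason for that difference was not tested. The SE of an edgeR log2 fold change was worked back from the test, as its absolute value divided by the square root of F. The common dispersion was 0.103. Alternatives were DESeq2 1.42.0, limma-voom (limma 3.58.1), other library scalings, no filter and a stricter filter (10 counts in 3 libraries), a term for the split by Xist (over 10 CPM), a replicate block and each library left out. The labels do not say that the libraries of a group came from separate animals, so p-values measure only the spread between these samples. Python 3.11.15 with pandas 2.3.3 drew up the other tables, and the fits were tested on simulated data.

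All 10 receptors passed the filter on low counts. The text names these, Tlr11 and Tlr12, Foxo3, sex-linked genes, the 3 genes of each pathway list with the smallest p, Unc93b1, Cd14, Ly96, Cd180, Ly86, Myd88 and Ticam1, and the 2 genes nearest in profile to each receptor. Genes named only within a count of 6 or fewer, single markers of cell types, Cxcl1, Il6, Il10 and Lbp were named after their values were seen. The members and lists were chosen with earlier results of these data known. Tlr5 had 18 to 121 counts in a library and every other receptor at least 353, which limits the precision of Tlr5 most. The colon, human and qPCR data of the study were not analysed here.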

Additional observations from a re-analysis of the deposited data

How the results depend on the processing

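None of the 10 receptors was called in any of 15 alternatives, which were DESeq2, limma-voom, scaling by DESeq2's size factors or by library size alone, other filters on low counts (none, or stricter), a replicate block, a term for the split by Xist, each library left out and DESeq2 without FOXO3 KO 2. The directions of Tlr1, Tlr2, Tlr3, Tlr5 and Tlr9 held in all of them. Without WT 3, the log2 fold change reversed for 5 receptors and Tlr12, and in no other alternative did these reverse; with each library left out in turn it ranged from -0.0409 (without WT 3) to 0.4451 for Tlr4, from -0.0455 to 0.2599 for Tlr6, from -0.0338 to 0.1186 for Tlr7, from -0.164 to 0.3748 for Tlr8, from -0.0241 to 0.4928 for Tlr13 and from -1.0529 to 0.3971 (without WT 3) for Tlr12. Over the alternatives, the log2 fold change ranged from 0.31 to 0.50 for Tlr2, from 0.49 to 0.65 for Tlr3 and from 0.85 to 1.58 for Tlr5, and the smallest adjusted p reached was 0.0739, for Tlr3 in DESeq2.

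DESeq2 called 118 genes higher and 6 lower, 2 of them pathway genes (higher), where edgeR's quasi-likelihood test called 0. Without FOXO3 KO 2, DESeq2 called 77 higher and 31 lower, again 2 of them pathway genes, and Foxo3 with a log2 fold change of -4.46 (adjusted p = 8.31e-44). The cause of the difference between the tools was not tested. Whether the replicate numbers pair the libraries could not be decided from 3 numbers. Deviations from the group means correlated at 0.339, -0.06 and 0.567 for numbers 1, 2 and 3, and 3 of 6 libraries were closest to their own number. With the replicate block, 0 receptors were called, and the log2 fold change of Foxo3 was -3.06 (FDR = 0.729 in edgeR). With the longest transcript as length, the mean levels of Tlr1 and Tlr4 moved to 29.1 and 43.3 CPM per kb. Tlr5 rests on 18 to 121 counts a library, and 2 libraries that stand apart, 1 in each group, leave few libraries for any comparison.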
